A study of Rattus norvegicus with 8 samples.

Results

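ADAM and ADAMTS proteins are metalloproteases with a metalloprotease-like domain and a disintegrin or disintegrin-like domain. Member probes were those not used as controls whose accession mapped to a rat RefSeq gene named Adam or Adamts followed by a number, ADAMTS-like genes included. There were 34 such probes of 30367 on the array, for 30 of 15154 named genes, and 20 of these 30 genes passed a filter on dim signals and were tested among 10236 genes. The 8 arrays carried RNA of testis cells that a cell sorter had selected with an antibody to CD9, taken from Sprague Dawley rats with a GFP transgene specific to germ cells. The young group of 4 samples came from rats of 4 months and the aged group of 4 samples from rats of 21 months, with the strain, the transgene and the CD9 sort common to both. The labels do not say whether GFP was used as a gate, whether tissue was pooled, or whether each sample of a group had its own animals. The p-values therefore cover the spread of these samples alone, and that spread may be technical.

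Most ADAM proteins are anchored in the cell membrane. Those with an active zinc site shed the outer part of other membrane proteins, such as growth factors and cytokines. A large subset is made in the testis, and many of its members lack protease activity. This subset is carried on the sperm surface and takes part in sperm migration through the oviduct and in binding to the egg. Which of the members studied here keep the zinc site was not examined. ADAMTS proteins are secreted, carry thrombospondin repeats and cut matrix proteins such as proteoglycans and procollagens, and the ADAMTS-like proteins resemble them without a protease domain. In the testis the sperm-surface ADAMs are made mainly by meiotic and post-meiotic germ cells, whereas members such as Adam17 are made in many tissues.

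The 2 sperm-surface members with the smallest p-values, Adam34 and Adam26a, are neighbours on chromosome 16. Their promoter windows are shown with that of Adam17, a well-known widely expressed member. Each window runs from 250 bases before to 50 bases after the RefSeq start on the strand of the gene, in build GRCr8. The windows lie at chr16:55289776-55290075 (plus strand) for Adam34, chr16:55336173-55336472 (plus strand) for Adam26a and chr6:46649295-46649594 (minus strand) for Adam17. Capitals mark TATAAA, the core of the promoter element bound by the TATA-binding protein, and TGACG, the core of the cyclic AMP response element (CRE) spelled TGACGTCA, on either strand.
Adam34: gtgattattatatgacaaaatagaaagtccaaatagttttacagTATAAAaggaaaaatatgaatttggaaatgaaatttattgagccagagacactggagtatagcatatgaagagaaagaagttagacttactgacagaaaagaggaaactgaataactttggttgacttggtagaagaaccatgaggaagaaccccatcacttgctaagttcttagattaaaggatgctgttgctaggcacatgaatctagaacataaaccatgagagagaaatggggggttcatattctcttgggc
Adam26a: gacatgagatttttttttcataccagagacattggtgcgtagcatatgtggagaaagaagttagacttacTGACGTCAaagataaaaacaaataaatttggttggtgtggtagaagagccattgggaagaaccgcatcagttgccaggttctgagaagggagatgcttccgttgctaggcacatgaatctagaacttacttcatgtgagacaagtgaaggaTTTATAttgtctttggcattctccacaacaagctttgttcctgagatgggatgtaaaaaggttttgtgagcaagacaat
Adam17: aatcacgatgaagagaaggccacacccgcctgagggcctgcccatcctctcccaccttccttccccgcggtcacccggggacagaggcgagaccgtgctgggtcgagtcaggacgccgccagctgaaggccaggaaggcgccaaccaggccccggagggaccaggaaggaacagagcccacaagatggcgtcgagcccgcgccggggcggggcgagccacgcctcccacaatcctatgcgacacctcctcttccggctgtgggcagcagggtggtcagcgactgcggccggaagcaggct
The longest run of bases shared by the Adam34 and Adam26a windows was gttgctaggcacatgaatctagaac, of 25 bases. Another shared run, gagaaagaagttagacttactgac, was 24 bases long and ended on the first 4 letters of the complete CRE sequence in Adam26a. The longest run shared by Adam34 and Adam17 had 10 bases. A global alignment gave 52.2% identical columns for Adam34 and Adam26a and 42.9% for Adam34 and Adam17. Adam17 and Adam15, on different chromosomes, gave 52.3%, so the overall identity of the neighbouring pair was no higher than that of a pair that are not neighbours.

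Of the 54 RefSeq member genes, 35 had a promoter window in the table, 11 of them tested here. The 6 tested sperm-surface genes with a window (Adam1a, Adam26a, Adam30, Adam34, Adam4 and Adam4l1) held a median of 3 CpG dinucleotides in 300 bases, with a range of 0 to 14. The 3 tested widely expressed genes (Adam15, Adam17 and Adam19) held a median of 25, with a range of 15 to 28. With windows of untested genes included, the ranges overlapped. They were 0 to 14 over 10 sperm-surface windows and 3 to 32 over 6 widely expressed windows. The median over all 33469 RefSeq windows of this length was 7. TATAAA was present in 3 of the 6 sperm-surface windows, in none of the 3 widely expressed windows and in 14.2% of all windows. The matches began 206 bases before the start in Adam34, 245 in Adam4l1 and 29 in Adam26a, the last on the opposite strand. The complete CRE was present in Adam26a alone of the 6, and in 1.8% of all windows. TGACG, which every complete CRE contains on both strands, was present in Adam26a and Adam1a and in 21.2% of all windows. These are letter matches in few windows, and no binding was measured.

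**Figure D1:**
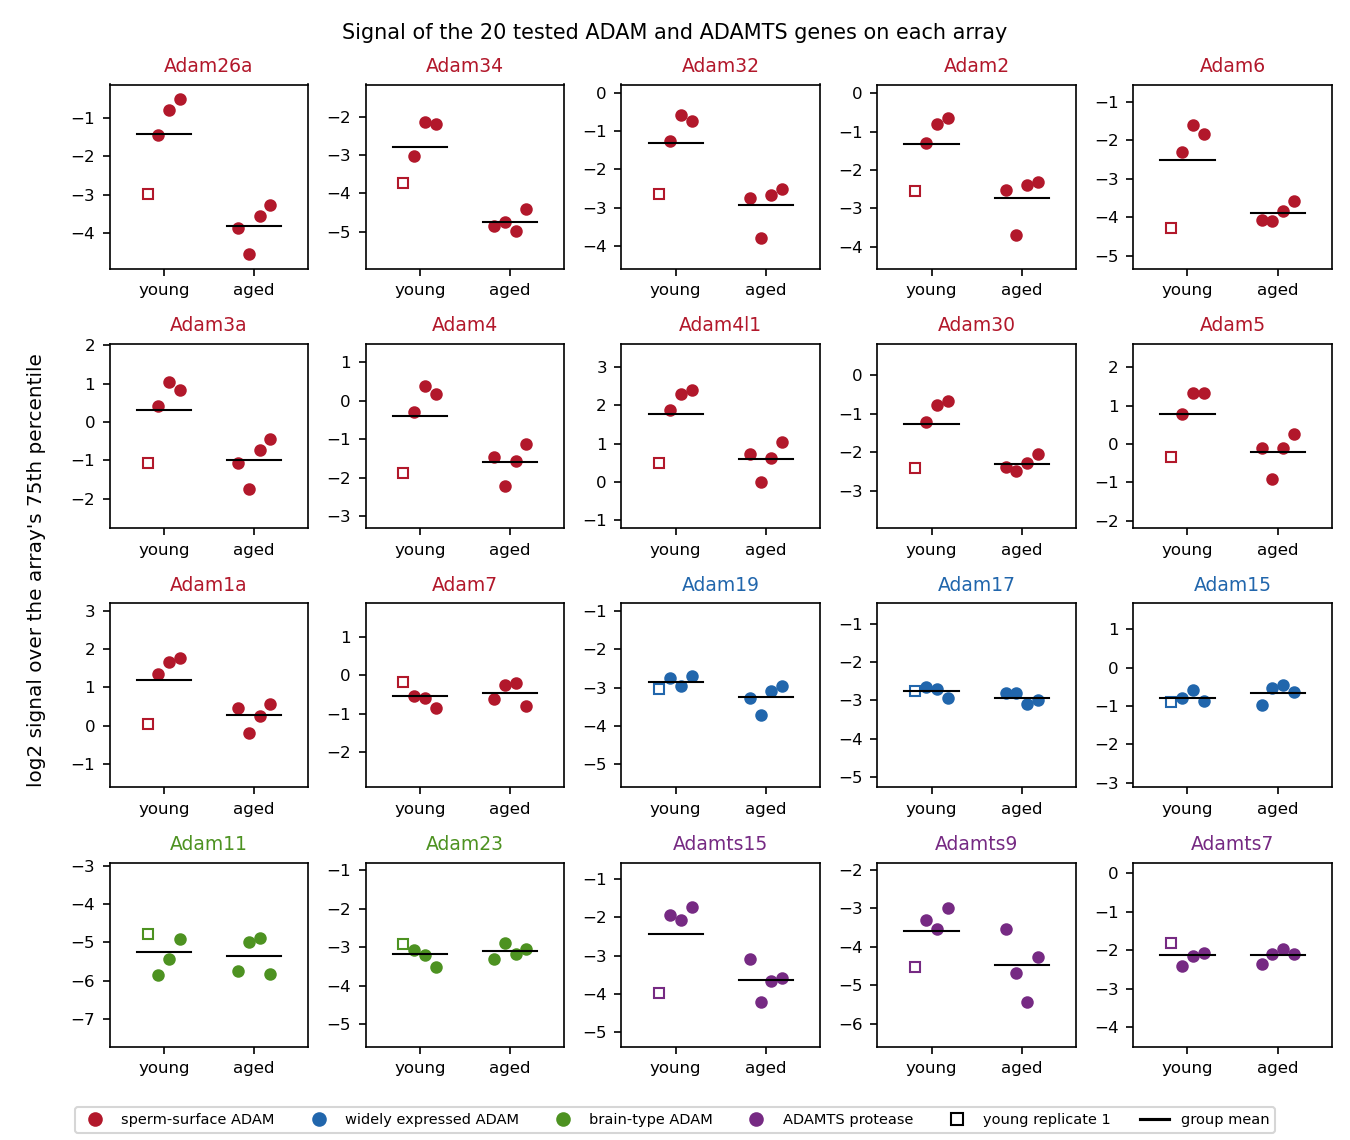
Signal of the 20 tested member genes on the 8 arrays, 1 panel a gene, as log2 signal over the 75th percentile of the array (vertical axis, same span in each panel) in young and aged samples, with points for arrays and lines for group means. Young replicate 1, the open square, is the lowest young value in 11 of the 12 sperm-surface panels (red), all but that of Adam7, and the groups of Adam34 and Adam26a do not overlap.

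One array stood apart, and values without it are therefore given beside those over all arrays. Over the 10236 genes tested, young replicate 1 correlated with the other young arrays at 0.962 to 0.973 (Pearson's r across genes, which are not independent replicates). It correlated with the aged arrays at 0.985 to 0.989, while the other young arrays correlated among themselves at 0.991 to 0.996. Young replicate 1 was thus picked from these same data for its likeness to the aged arrays. Leaving it out favours calls for that reason, and p-values and calls without it are a description only. Over all genes tested 3776 were called without it, beside 67 over all arrays. The 75th percentile signal of the arrays ranged from 326 to 524 intensity units, and no member spot was saturated. All arrays lay on 1 slide, with the young samples in one row and the aged samples in the other, so slide row and age cannot be told apart. All 9 listed markers of undifferentiated spermatogonia, such as Zbtb16 and Gfra1, passed the filter. So did 13 of 14 spermatid markers, including the protamine genes Prm1 and Prm2, and 9 of 11 myoid and stromal markers.

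Every sperm-surface member was detected. All 12 genes of this group on the array were well above background on all 8 arrays, through at least 1 probe. Among the widely expressed members this held for 3 of 4 genes, and Adam9 was above background on 2 young and 2 aged arrays. Of the brain-type members, which bind other proteins without protease activity, it held for Adam23, while Adam11 was above background on 7 arrays. It held for 2 of 9 ADAMTS proteases (Adamts7 and Adamts15) and for 0 of 3 ADAMTS-like genes. Over all members 18 of 30 genes (60%) were above background on all 8 arrays, near the 64.3% of all named genes. The number of member genes above background on an array ran from 18 (aged replicate 3) to 24 (young replicate 3), and the number of member probes from 19 to 26 of 34. The share of all probes above background ran from 63.0% to 72.0%, and aged replicate 3 and young replicate 3 were also its ends.

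In aged samples 11 of the 12 sperm-surface genes had a lower mean than in young samples, the exception being Adam7. The median change of the group, aged minus young, was -1.24 on the log2 scale, beside 0.11 for all genes tested. A change below 0 was found for 36.6% of all genes. At an adjusted p under 0.05 in the limma fit over all 10236 genes, 1 member, Adam34, fell and 0 of the 20 tested members rose. Among all genes tested, 0.156% were called lower and 0.498% higher. At an unadjusted limma p under 0.05, 13 of the 20 members were lower, beside 13.6% of all genes, and 0 were higher. Filtering on detection did not remove any of the 12 sperm-surface genes, but it did remove 10 other members.

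Adam34, a testis-expressed member of the family in rodents, had log2 signals of -3.74, -3.04, -2.14 and -2.20 on young arrays 1 to 4 and of -4.84, -4.73, -4.99 and -4.41 on aged arrays 1 to 4. All 4 aged values lay below all 4 young values, and the lowest young value was that of replicate 1. The mean fell by 1.97 ± 0.33 (SE, n = 4 per group) on the log2 scale, a level 3.91-fold lower in aged samples, with a limma adjusted p of 0.0465. The second probe of the gene gave a change of -1.98. The tested probe was well above background on all 4 young and 3 of 4 aged arrays, so it passed the filter through the young group. Leaving out young replicate 1 gave -2.29 (limma adjusted p = 0.00301). Leaving out any 1 of the other 7 arrays ended the call, with limma adjusted p-values of 0.0693 to 0.169. Quantile scaling (limma adjusted p = 0.0546), unnamed probes tested too (0.0541), no filter on dim probes (0.110) and no scaling (0.272) also ended it. Normexp fits a model to the median spot intensity less its local background, and here it added an offset of 50 that compresses dim signals. With it the change was -0.67. Its limma adjusted p was 0.0354, or 0.0603 with quantile scaling in addition.

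Adam26a, the neighbouring testis-expressed gene, had young log2 signals of -2.97, -1.44, -0.78 and -0.50 and aged log2 signals of -3.86, -4.55, -3.55 and -3.25. Here too the groups did not overlap, with young replicate 1 nearest to the aged arrays. The change was -2.38 ± 0.51 (SE, n = 4 per group) and did not pass the test (limma adjusted p = 0.0561). Without young replicate 1 it was -2.90 (limma adjusted p = 0.00303), and with normexp it was -1.19 (limma adjusted p = 0.0354). Adam34 and Adam26a were the members whose groups did not overlap, 2 of 20 tested, beside 4.12% of all genes in the same direction. Paralogs such as these can share bases with a probe, and as the files used here hold no probe sequences, cross-hybridisation was not tested.

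The genes of the fertilin and cyritestin proteins gave similar patterns. Adam2 encodes fertilin beta, a sperm membrane protein needed for normal sperm migration and egg binding. Its log2 signals were -2.55, -1.30, -0.81 and -0.64 in young samples and -2.52, -3.70, -2.39 and -2.31 in aged samples. Young replicate 1 lay within the aged range, and the other 3 young values lay above all aged values. The change was -1.40 ± 0.45 (SE, n = 4 per group; limma adjusted p = 0.0890), or -1.81 without young replicate 1 (limma adjusted p = 0.00875).

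Adam3a encodes cyritestin, a sperm surface protein needed for passage into the oviduct. Its young log2 signals were -1.07, 0.42, 1.03 and 0.82 and its aged log2 signals -1.06, -1.76, -0.73 and -0.43. Again only young replicate 1 overlapped with the aged samples. The change was -1.29 ± 0.46 (SE, n = 4 per group; limma adjusted p = 0.106), or -1.75 without that array (limma adjusted p = 0.00723). Adam1a, which encodes the alpha chain of fertilin, the partner of fertilin beta in the endoplasmic reticulum, had a change of -0.93 ± 0.36 (SE, n = 4 per group; limma adjusted p = 0.122), or -1.31 without that array (limma adjusted p = 0.00508).

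The other sperm-surface members fell into the same range of changes. Adam32, a sperm membrane protein of the testis, had a change of -1.63 ± 0.46 (SE, n = 4 per group; limma adjusted p = 0.0748). For Adam6 and Adam4, whose products are found with those of Adam2 and Adam3a in complexes on sperm, the changes were -1.39 and -1.19. Adam30, Adam4l1 and Adam5, also testis-expressed, had changes of -1.05, -1.17 and -0.99. None of these genes passed the test over all arrays, with limma adjusted p-values of 0.0748 to 0.124 over the 6. Their changes without young replicate 1 ran from -1.36 (Adam5) to -2.08 (Adam32), and all 6 were called lower, beside 14.6% of all genes. Adam4 and Adam4l1 are neighbours on chromosome 6 with promoter windows of 80.6% identity, and their signals could be shared between probes in the same way as above.

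Adam7 differed in its values from the rest of the group. It is known mainly as a product of the epididymis that is transferred to sperm. Its young log2 signals were -0.18, -0.54, -0.59 and -0.87 and its aged log2 signals -0.62, -0.26, -0.21 and -0.80. The groups overlapped throughout, and young replicate 1 was the highest young value instead of the lowest. The change was 0.08 ± 0.18 (SE, n = 4 per group; limma adjusted p = 0.796), with a sign that turned to -0.38 under scaling to spike-in RNA. It was 0.20 without young replicate 1 (limma adjusted p = 0.367).

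**Figure D2:**
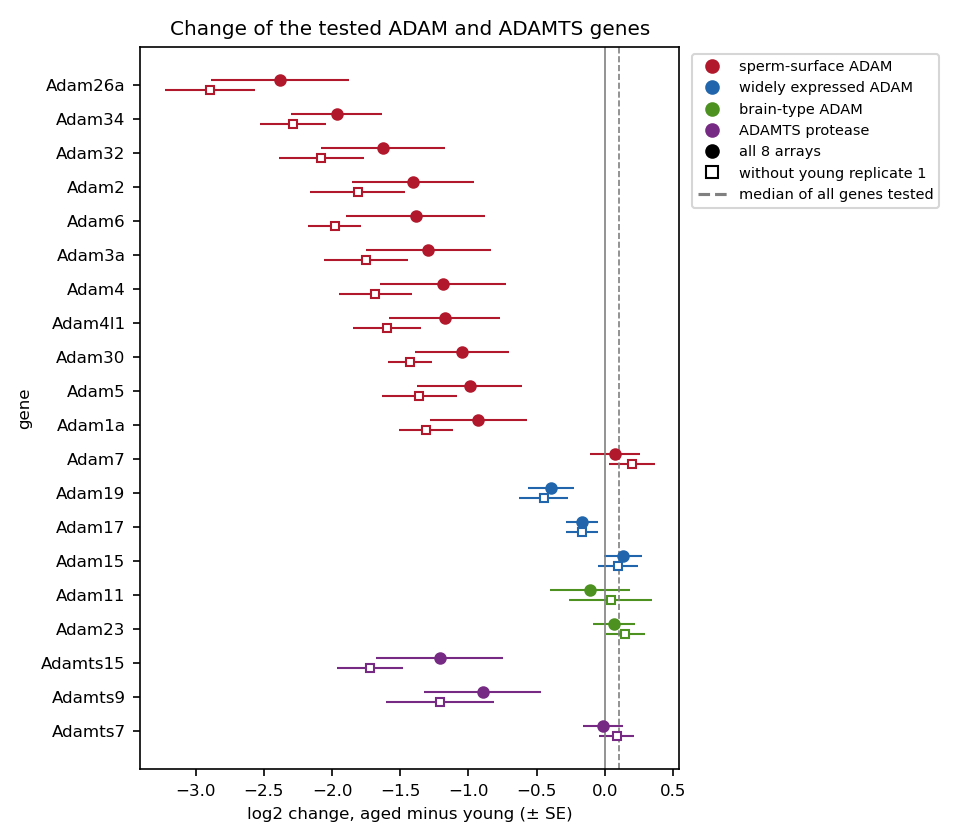
Change of each tested member, aged minus young, in log2 units (horizontal axis) with its standard error, for all 8 arrays (filled points) and without young replicate 1 (open squares). For 11 sperm-surface genes the point moves further below 0 when that array is left out, from -1.97 to -2.29 for Adam34 and from -1.39 to -1.98 for Adam6, while the widely expressed genes stay between -0.45 and 0.13.

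Leaving out young replicate 1 changed the count of calls more than any other array did. Without it 13 of the 20 tested members were lower at a limma adjusted p under 0.05, namely the 11 sperm-surface genes other than Adam7, Adamts15 and Adamts9. In that fit 14.6% of all genes were called lower and 22.3% higher. The groups of the same number of members, 13, then did not overlap, beside 16.5% of all genes in that direction. The median change of the sperm-surface genes was -1.72 without the array, beside 0.17 for all genes. Leaving out any 1 of the other 7 arrays left 0 members called by limma, and 5 to 13 members were then at an unadjusted p under 0.05. The sperm-surface median stayed between -1.01 and -1.41 when those 7 arrays were left out in turn.

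The widely expressed members had smaller changes. Adam17, the enzyme that sheds tumour necrosis factor and ligands of the epidermal growth factor receptor, had log2 signals of -2.76, -2.64, -2.71 and -2.93 in young and of -2.81, -2.80, -3.09 and -3.00 in aged samples. The groups overlapped, and young replicate 1 lay among the other young arrays. The change was -0.17 ± 0.12 (SE, n = 4 per group; limma adjusted p = 0.340), and it was -0.16 without young replicate 1.

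Adam19, a sheddase of neuregulins, had young log2 signals of -3.02, -2.75, -2.97 and -2.69 and aged log2 signals of -3.26, -3.70, -3.10 and -2.95. One aged value, that of replicate 4, lay within the young range. The change was -0.39 ± 0.17 (SE, n = 4 per group; limma adjusted p = 0.152), but a second probe of the gene gave 0.17, so its direction rests on the probe. The change was -0.45 without young replicate 1 (limma adjusted p = 0.0850). Adam15, a member with an integrin-binding motif, had a change of 0.13 ± 0.14 (SE, n = 4 per group; limma adjusted p = 0.530), or 0.097 without that array. The median of the 3 genes was -0.17, and -0.16 without young replicate 1. With 3 genes against 12 and members chosen with results of these data known, the difference between the medians of the widely expressed and sperm-surface groups is a description.

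The brain-type members had no call. Adam23, which binds the secreted synaptic protein Lgi1, had log2 signals of -2.92, -3.07, -3.20 and -3.50 in young and -3.31, -2.88, -3.17 and -3.06 in aged samples. The values of the groups were interleaved, with a change of 0.07 ± 0.15 (SE, n = 4 per group; limma adjusted p = 0.780). Adam11, a related neuronal receptor, had young log2 signals of -4.78, -5.86, -5.43 and -4.91 and aged log2 signals of -5.74, -4.98, -4.89 and -5.81. Both groups spread over nearly the same range, and the change was -0.11 ± 0.29 (SE, n = 4 per group; limma adjusted p = 0.817), with a sign that depended on the scaling. For Adam23 the sign turned under spike-in scaling. The changes without young replicate 1 were 0.15 for Adam23 and 0.045 for Adam11.

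Among the ADAMTS proteases, Adamts15, an enzyme that cuts aggrecan and versican, had log2 signals of -3.96, -1.96, -2.06 and -1.73 in young and -3.09, -4.22, -3.67 and -3.58 in aged samples. Young replicate 1 lay within the aged range and the other 3 young arrays well above it. The change was -1.21 ± 0.47 (SE, n = 4 per group; limma adjusted p = 0.121), and -1.72 without young replicate 1 (limma adjusted p = 0.00420). The second probe of this gene was above background on 1 array and was not tested.

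Adamts9, another protease of versican, had young log2 signals of -4.53, -3.31, -3.53 and -2.98 and aged log2 signals of -3.54, -4.69, -5.43 and -4.26. Young replicate 1 lay within the aged range, and the remaining young values were above all aged values, the nearest at -3.53 and -3.54. The probe was well above background on all 4 young and 3 of 4 aged arrays, so it passed the filter through the young group. The change was -0.89 ± 0.43 (SE, n = 4 per group; limma adjusted p = 0.184). It was -1.21 without young replicate 1 (limma adjusted p = 0.0472) and -0.24 with normexp. Adamts7, a protease of cartilage oligomeric matrix protein, had a change of -0.01 ± 0.15 (SE, n = 4 per group; limma adjusted p = 0.969), with a sign that turned under quantile and median scaling among other settings and was 0.087 without young replicate 1.

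The remaining ADAMTS genes were too dim for a test. Adamts1, a protease of versican and aggrecan with a known part in ovulation, was above background on 3 young and 2 aged arrays. Its log2 signals were -5.40, -3.45, -3.12 and -3.02 in young and -5.02, -5.35, -4.92 and -4.89 in aged samples. Young replicate 1 was the lowest of all 8, and the other 3 young arrays were the highest. Adamts19 was above background on 3 young and 3 aged arrays, and Adamts5, an aggrecanase next to Adamts1 on chromosome 11, on 1 young array. Adamtsl3 was above background on 1 young array. Adamts4, Adamts12, Adamts18, Adamtsl4 and Adamtsl5 were not well above background on any array. The other 24 RefSeq member genes, which include Adam10, Adam12 and Adamts2, were matched by no named probe and were not analysed here.

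**Figure D3:**
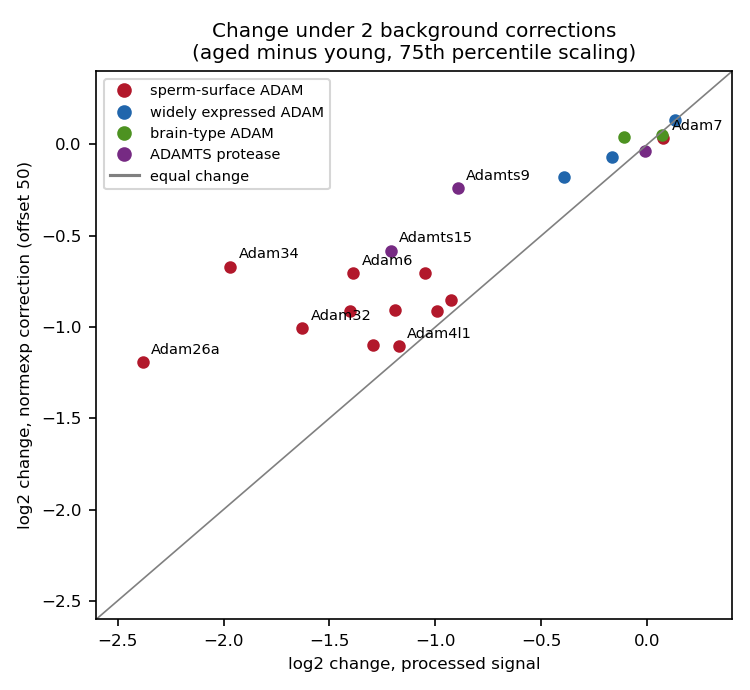
Change of the 20 tested members, aged minus young, in log2 units with the deposited processed signal (horizontal axis) and with normexp background correction and an offset of 50 (vertical axis), both scaled to the 75th percentile. The 11 sperm-surface genes other than Adam7 lie above the line of equal change, far from it for Adam34 (-1.97 and -0.67) and close to it for Adam4l1 (-1.17 and -1.11), and Adamts9 also lies above it (-0.89 and -0.24).

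Normexp started from the median spot intensity, changed the background model and added the offset at the same time. The share of each in the shift of the changes was not tested. With normexp the sperm-surface median was -0.91, beside 0.08 for all genes. Again 11 of the 12 genes were lower, beside 3468 of all 10236 genes tested. Adam34, Adam26a and Adam32 were then called lower by limma, beside 2.61% of all genes. The median of the 3 ADAMTS proteases was -0.89 with the processed signal and -0.24 with normexp. Scaling to 4 spike-in probes moved the median of all genes to -0.35. By limma 16 of all genes were called lower and 51 higher with the main scaling, 267 lower and 363 higher with normexp, and 998 lower and 6 higher with spike-in scaling. On the spike-in scale all 20 members had a change below 0, and so did 9554 of all 10236 genes tested. The widely expressed median was then -0.62 and the sperm-surface median was -1.70.

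Signals of spermatid, stromal and macrophage markers moved along with the sperm-surface genes, whereas those of spermatocyte and Sertoli cell markers were higher in aged samples. The mean over 8 arrays was subtracted from each gene, and the genes of a list were averaged for every array. For the 12 sperm-surface genes this list mean was -0.53 on young replicate 1, between 0.68 and 1.21 on young replicates 2 to 4, and between -1.13 and -0.29 in aged samples. For the 13 spermatid markers it was -0.51 on young replicate 1, between 0.52 and 1.02 on young replicates 2 to 4, and between -1.16 and -0.08 in aged samples. All 13 spermatid markers were lower in aged samples, beside 36.6% of all genes, with a median change of -0.75. By limma 0 were called over all arrays, and 6 were lower at an unadjusted p under 0.05, beside 13.6% of all genes. Without young replicate 1 the median of the spermatid markers was -1.12. All 13 were then called lower, beside 14.6% of all genes. Fewer cells of a type and less RNA per cell cannot be told apart in such bulk samples, and the part of the spermatid signal in the changes of the sperm-surface genes was not tested.

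For the 9 myoid and stromal markers the list mean was -0.62 on young replicate 1, between 1.04 and 1.17 on young replicates 2 to 4, and between -1.35 and -0.25 in aged samples, with a median change of -1.17, or -1.62 without young replicate 1. For the 5 macrophage markers it was -0.40 on young replicate 1, between 0.65 and 0.95 on young replicates 2 to 4, and between -1.35 and 0.32 in aged samples, with a median change of -0.75, or -1.15 without that array. Their part in the changes of Adamts15 and Adamts9 was not tested. Spermatocyte markers went the other way, with list means of -0.77 to -0.19 on young arrays and 0.25 to 0.78 on aged arrays. All 9 tested had a change above 0, as did 6493 of all 10236 genes tested. At a limma adjusted p under 0.05, 7 of the 9 were called higher, beside 0.498% of all genes. Without young replicate 1 all 9 were called higher, beside 22.3% of all genes. The 9 markers of undifferentiated spermatogonia had list means of 0.03 to 0.22 on young arrays and -0.25 to -0.04 on aged arrays. Of the other somatic lists, the median change was 0.23 for 3 Sertoli cell markers, -0.20 for 4 Leydig cell markers and -0.11 for 3 endothelial markers. With young replicate 1 left out these medians were 0.081, -0.31 and -0.054. For the 3 widely expressed ADAM genes the list means were -0.02 to 0.14 on young arrays and -0.14 to 0.01 on aged arrays.

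**Figure D4:**
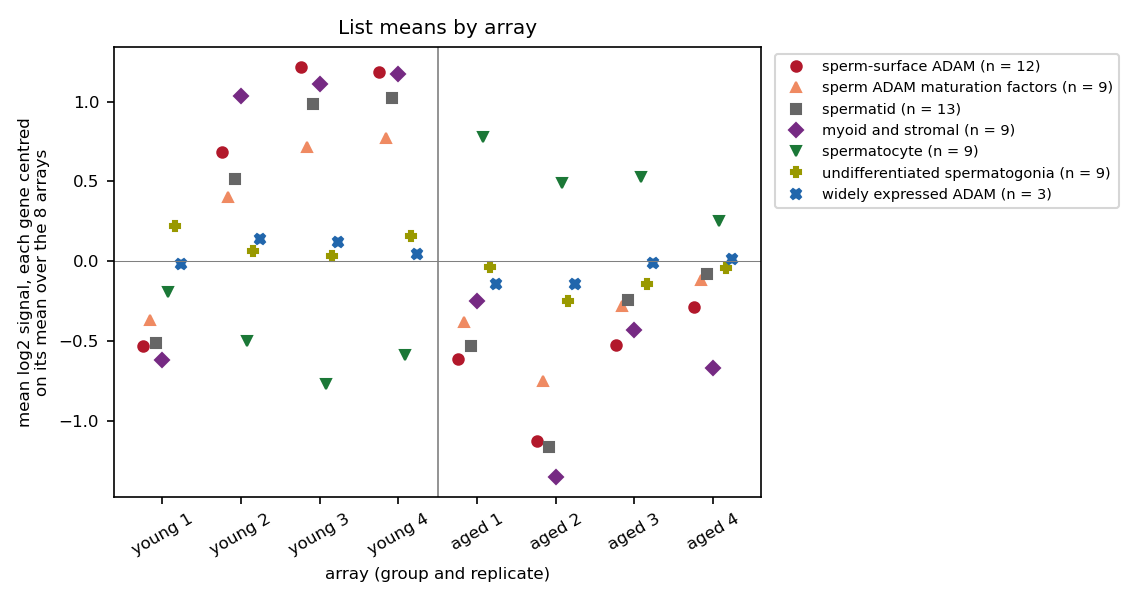
Mean log2 signal of 7 gene lists on each array (vertical axis) after subtraction of the gene mean over all 8, with arrays by group and replicate on the horizontal axis. The sperm-surface, maturation factor, spermatid and stromal lists are above 0 on young arrays 2 to 4 and below 0 on young array 1 and on every aged array, while the widely expressed list stays between -0.14 and 0.14.

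The genes that act with these proteases were described from a list of 51 partners and substrates, of which 35 were tested. Of these, 18 had a change below 0 and 17 above, with a median of -0.01. At a limma adjusted p under 0.05, 1 rose, Tex101, beside 0.498% of all genes, and 0 fell, beside 0.156%. At an unadjusted limma p under 0.05, 11 were lower, beside 13.6% of all genes, and 2 were higher. In either direction 3217 of the 10236 genes tested were under that unadjusted threshold. Without young replicate 1, 14 were called lower, beside 14.6% of all genes, and 2 higher, beside 22.3%.

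The factors needed for the maturation of sperm ADAM proteins were lower for 7 of 9 tested genes, beside 36.6% of all genes, with a median of -0.98. Pdilt, a chaperone of the testis endoplasmic reticulum needed for Adam3 to reach the sperm surface, had log2 signals of -3.13, -0.98, -0.39 and -0.33 in young and -3.81, -4.23, -3.51 and -3.04 in aged samples. One young value, that of replicate 1, overlapped with the aged samples. Its change was -2.44 ± 0.58 (SE, n = 4 per group; limma adjusted p = 0.0561), and -3.08 without young replicate 1 (limma adjusted p = 0.00301).

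In the same list, Tpst2 and Pgap1 had changes of -0.09 (limma adjusted p = 0.709) and 0.14 (limma adjusted p = 0.484). Another 5 members had changes smaller than that of Pdilt and in the same direction. The changes of Calr3, Cmtm2a, Prss37 and Ace were -1.15, -1.32, -1.28 and -0.98, and that of Clgn, another chaperone of the testis, was -0.50. These values did not pass the test, with limma adjusted p-values of 0.0854 to 0.151. All 5 were called lower without young replicate 1, with limma adjusted p-values of 0.00543 to 0.0227, beside 14.6% of all genes. Tex101, a germ cell surface protein anchored by a lipid and also needed for Adam3 to reach sperm, went the other way. Its log2 signals were 3.66, 3.93, 3.92 and 3.92 in young and 4.46, 4.66, 4.73 and 4.59 in aged samples. All aged values lay above all young values. Tex101 rose by 0.75 ± 0.11 (SE, n = 4 per group; limma adjusted p = 0.0465) on the log2 scale, in a direction in which 10.2% of all genes had groups without overlap. Its change was 0.69 without young replicate 1 (limma adjusted p = 0.00391). Leaving out any 1 of the other 7 arrays ended this call too, with limma adjusted p-values of 0.0693 to 0.169. Spike-in scaling ended it as well (0.30, limma adjusted p = 0.315).

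Among the inhibitors, Timp1 and Timp2 had changes of -0.43 (limma adjusted p = 0.221) and -0.37 (limma adjusted p = 0.430). For the convertases that remove the inhibitory prodomain, the change of Pcsk4, a germ cell enzyme, was -0.25 (limma adjusted p = 0.144) and that of Pcsk7 was 0.47 (limma adjusted p = 0.188). Of the partners that carry Adam17 or Adam10 to the surface, Rhbdf1 had a change of 0.46 (limma adjusted p = 0.118) and Tspan5 of -0.31 (limma adjusted p = 0.208). None of these 6 genes passed the test over all arrays. Without young replicate 1, Timp1 (-0.62, limma adjusted p = 0.0338) and Pcsk4 (-0.29, limma adjusted p = 0.0450) were called lower, and Timp2, Pcsk7, Rhbdf1 and Tspan5 had changes of -0.55, 0.43, 0.48 and -0.40 without a call. The median was -0.40 for the 2 tested inhibitors, 0.08 for the 4 convertases and 0.09 for the 8 trafficking partners.

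The 7 tested membrane substrates had a median of 0.09 and the 5 tested matrix substrates one of -0.82. The changes of the membrane-bound ligands Kitlg and Cx3cl1 were -0.85 (limma adjusted p = 0.0859) and -0.47 (limma adjusted p = 0.280). The fibrillar collagens Col1a1 and Col3a1, also counted among the stromal markers, had changes of -0.90 (limma adjusted p = 0.0542) and -1.87 (limma adjusted p = 0.0561), each with groups that did not overlap. Col3a1 was above background on all 4 young and 2 of 4 aged arrays, so it passed the filter through the young group. These values did not pass the test over all arrays. Without young replicate 1, Col1a1, Col3a1, Fbn1, Comp, Kitlg and Cx3cl1 were called lower, with limma adjusted p-values of 0.00301 (Col3a1) to 0.0378 (Fbn1). Of all genes, 14.6% were then called lower and 22.3% higher. In the same fit Fbn2 was called higher, by 0.40 (limma adjusted p = 0.0428).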

How the data were processed

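RNA of 8 samples of CD9-positive cells, 4 young and 4 aged, was measured on one-colour arrays, per the labels from 18 ng each with Cy3. Per the file headers, processed signals were deposited as linear intensity values, less background, that had not been scaled between arrays (Agilent Feature Extraction 10.7.3.1; the submitters' processing notes give version 12.5; probe design on rn4). The deposited median spot and background intensities are raw, and deposited flags of 0 or 1 mark spots well above background, saturated or outlying. The authors' deposited series table holds log2 values centred on each probe's median over the arrays. The columns of young replicates 1 to 4 had medians of 0.09, -0.07, -0.14 and -0.06, and those of aged replicates 1 to 4 had -0.02, 0.05, 0.07 and -0.003. Against the main values centred in the same way, its slopes were 0.9997 to 1.0004 over 19303 probes, so scale and direction were the same.

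Control and outlier spots were left out, spots of a probe were averaged as log2, and each array was scaled by subtracting its 75th percentile of probes that are not controls. Probes were named by accession through the RefSeq gene table of GRCr8: 17998 of 30367 matched, and 12369 stayed unnamed. The filter asked that a share of 0.5 or more of the spots of a probe be well above background on all arrays of 1 group or both, with 2 or more values per group, and the probe with the highest mean stood for its gene. Ages were compared with limma 3.58.1 in R 4.3.3 (two-sided moderated tests from eBayes after lmFit, with 9.15 degrees of freedom), with Benjamini-Hochberg adjustment over all 10236 genes. The fit was tested on simulated data with noise drawn independently for each gene and array. Such data lack a deviation shared by many genes on 1 array, as on young replicate 1, so that test does not cover it. The number of arrays limits the precision.

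The members, role groups, and partner and marker lists were chosen with earlier results of these data known. Values on every array are given for members called, members with groups that do not overlap, the 2 tested members with the smallest p in each role group, and Adam2, Adam3a, Adam17, Adam34 and Adamts1. Of the partners, called genes and the 2 with the smallest p in each subgroup are described. Cmtm2a, Calr3, Ace, Prss37, Clgn, Tpst2, Pgap1, Fbn1, Fbn2 and Comp were added after their values were seen. Promoter windows came from RefSeq (GRCr8). A split of members by the zinc site of their proteins was planned but not made, since no protein sequences were used here. Alternatives covered scaling, the authors' log2 values, normexp (offset 50), filters, probe choice, the variance model, array weights, the replicate block, unnamed probes and leaving out each array.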

Additional observations from a re-analysis of the deposited data

Results flagged for a closer look

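In 9 of the 64 groups of 4 arrays checked (32 genes in 2 ages), 1 array lay so far from the others that its gap, as a share of the range of the group, exceeded Dixon's critical value. Chance marks about 1 group in 20. Among the members these were Adamts15, at -3.96 (log2 signal) on young replicate 1, and Adam2, at -3.70 on aged replicate 2. Among the partners young replicate 1 stood apart for Tex101 at 3.66, Timp1 at -0.96, Col3a1 at -4.25 and Cx3cl1 at -2.03. In the same way aged replicate 2 stood apart for Timp2 at 2.27, Kitlg at -3.97 and Tspan5 at -4.45. All 9 of these values were the lowest of their group. Aged replicate 2 was also the lowest aged array for 10 of the 12 sperm-surface genes, and without it their median change was -1.01. The cause of these deviations was not tested.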

How the results depend on the processing

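The authors' log2 values, outlier spots kept, several probes averaged per gene, and a variance trend with robust fitting left 1 member called lower, as in the main fit. The count was 0 with quantile scaling, no scaling, normexp with quantile scaling, no filter on dim probes, a filter for detection on all arrays (which removes Adam34), unnamed probes tested too, and the replicate number as a block. It was 3 with median scaling, 3 with normexp, 5 with spike-in scaling and 13 with array weights. Leaving out each array in turn gave 0 to 13, and 0 members were called higher under any setting run. Partners called lower, 0 in the main fit, numbered 3 with median scaling, 9 with spike-in scaling, 3 and 1 with normexp and its quantile form, 1 with the variance trend, 15 with array weights and 0 to 14 without 1 array. Partners called higher, 1 in the main fit, numbered 0 with quantile, spike-in or no scaling, normexp with quantile scaling, no filter, the replicate block or unnamed probes, 3 with array weights and 0 to 2 without 1 array.

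The sperm-surface median stayed between -0.89 and -1.72 in all settings. The widely expressed median was -0.013 with quantile scaling, -0.010 with median scaling, -0.62 with spike-in scaling, and -0.070 and -0.018 with normexp and its quantile form. The brain-type median was -0.48 with spike-in scaling. The ADAMTS median was -1.35 with spike-in scaling, -0.24 and -0.22 with normexp and its quantile form, -0.011 with no filter and -1.44 with array weights. Signs turned for Adam11 (0.012 with quantile, 0.045 with median scaling, 0.038 and 0.010 with normexp and its quantile form, 0.061 with array weights), Adam15 (-0.32), Adam23 (-0.39) and Adam7 (-0.38) with spike-in scaling, and Adamts7 (0.12 with quantile, 0.14 with median scaling, 0.014 with normexp and quantile scaling, 0.098 with array weights). Without 1 array, Adam11 ranged from -0.32 to 0.045, Adamts7 from -0.11 to 0.087, Adam23 from -0.043 to 0.15 and Adam7 from -0.031 to 0.20. The cause of these shifts was not tested. Deviations of same-numbered samples correlated at -0.26, -0.12, 0.44 and 0.35, and those of differently numbered samples at -0.66 to 0.69. These values do not settle whether replicate numbers pair the samples. In the fit with the replicate block, 3231 genes were at an unadjusted p under 0.05, beside 3217 in the main fit, and the adjusted p of Adam34 was 0.0773 (limma). Over all genes 67 were called in the main fit and 1330, 0, 1004, 630, 253, 0, 270, 4530, 0 and 0 with median, no and spike-in scaling, normexp and its quantile form, no filter, the variance trend, array weights, the block and unnamed probes, and 0 to 3776 without 1 array. Adam34, Adamts9 and Col3a1 were dim in aged samples, and their changes of -1.97, -0.89 and -1.87 were -0.67, -0.24 and -0.60 with normexp. How dim signals bear on the size of these changes was not tested.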
